A study of Mus musculus with 6 samples.

Results

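The insulin receptor, IRS and FOXO axis is described here by 10 genes: the ligand gene Igf1, the receptor genes Insr and Igf1r, the adaptor genes Irs1 and Irs2, the phosphoinositide 3-kinase (PI3K) subunit genes Pik3r1 and Pik3ca, the kinase gene Akt2 and the transcription factor genes Foxo1 and Foxo3. They are 10 of 19938 genes that had a transcript cluster (a set of probes for 1 transcript) annotated to 1 gene, and all 10 were among the 14953 genes bright enough to be tested. Where a gene had several such clusters, the cluster used was chosen by its mean over all 6 arrays, the highest being taken; this applied to Insr, Irs1 and Akt2, and that mean takes no account of treatment. The list itself was drawn up with the fall of Irs2 in these hearts already known, so its count of calls is a description.

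The hearts came from C57BL/6J mice at postnatal day 14 that had received ETX (3 hearts, replicates 6, 7 and 10) or the vehicle, phosphate-buffered saline (PBS; 3 hearts, replicates 3, 9 and 12) for 1 week. ETX is not spelled out in the labels; it is a usual abbreviation of etomoxir, an inhibitor of the carnitine palmitoyltransferase that admits long-chain fatty acids to mitochondria. Each heart was hybridised to its own Affymetrix whole-transcript array and is described as a biological replicate; their sex and litter are not stated in the labels. Values are log2 signals made by the authors with RMA, on which 1 unit is a doubling, and the number of arrays limits their precision.

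Insulin and insulin-like growth factors bind receptor tyrosine kinases that phosphorylate the IRS adaptors. These recruit PI3K, whose lipid product activates AKT. AKT phosphorylates the FOXO factors and so keeps them out of the nucleus; when the signal is weak, FOXO factors enter it and induce genes of protein breakdown, fasting metabolism and growth arrest. In liver, Irs2 is itself a gene that FOXO factors induce and that insulin represses. In the heart the pathway supports growth, glucose uptake and survival.

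The promoters of 3 IRS genes are shown first because they share a feature that the choice of members did not use. Each holds CACGTG (an E-box, the site of basic helix-loop-helix factors such as TFE3) beside TGTTTTG (the core of an insulin response element, to which FOXO factors bind), both in capitals. Irs2 (chr8:11008938-11008997, minus strand), Irs1 (chr1:82291519-82291578, minus strand) and Irs4 (chrX:141725336-141725395, minus strand) are aligned on CACGTG and read 5′ to 3′ on the strand of the gene, from RefSeq on GRCm38.p6:
Irs2: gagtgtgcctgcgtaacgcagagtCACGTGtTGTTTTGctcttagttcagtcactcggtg
Irs1: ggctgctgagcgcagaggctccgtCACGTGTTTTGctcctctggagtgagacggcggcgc
Irs4: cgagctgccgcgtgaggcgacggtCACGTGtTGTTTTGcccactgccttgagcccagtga

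The window of Irs3 holds neither motif. In Irs2 and Irs4 a single t stands between the motifs, and in Irs1 they overlap. Counted from the start site, with the base just before it as -1, CACGTG began at -44 in Irs2, -115 in Irs1 and -154 in Irs4, and Irs1 held a further TGTTTTG at -32. Both motifs, on either strand, were searched with TGTTTAC (the FOXO core) and TGACGTCA (the cAMP response element) in all 32851 promoter windows of 300 bases (250 before the start to 50 after). CACGTG was in 7.15% of them, TGTTTTG in 6.28%, TGTTTAC in 3.65% and TGACGTCA in 1.79%, and CACGTG and TGTTTTG were together in 0.408%. TGTTTTG began within 10 bases after the start of CACGTG, on the strand of the gene, in 3 windows of the 32851, and these were Irs1, Irs2 and Irs4. The distance was chosen after the Irs1 and Irs2 windows were seen, and the order and strand searched are those of these windows. The matches of Irs1 and Irs2 were therefore fixed in advance. Without limits on order, strand and distance, 134 windows held both motifs. Of the 10 members 9 had a window (not Insr), and beyond Irs1 and Irs2 these windows held none of the 4 motifs. A match of letters is a description, not a binding site. Irs4 is not a member, and its signal was too dim in these hearts to be tested. The log2 difference, ETX minus PBS, was -1.23 for Irs2 and -0.15 for Irs1, which was not called. A link between the motif pair and expression was not tested.

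The hearts matched their label: the cardiomyocyte markers (Myh6, Tnnt2, Ttn and 7 others) averaged 12.03, 11.90 and 11.92 in the ETX hearts and 12.02, 12.02 and 11.98 in the PBS hearts on the log2 scale. Lung epithelium markers averaged 3.63 to 3.69 in the ETX hearts, against 5.97, 7.5 and 3.55 in PBS replicates 3, 9 and 12, so that 2 PBS hearts stood apart. Atrial markers were on average high in ETX replicates 6 and 7 (7.53 and 7.60) and PBS replicate 3 (8.05), against 6.24 in ETX replicate 10 and 5.79 and 5.94 in PBS replicates 9 and 12. The 8 atrial markers were not uniform. Nppa was high in ETX replicate 10 too (11.89, against 9.28 and 9.04 in PBS replicates 9 and 12). Bmp10 was high in PBS replicate 3 only (7.71). Hepatocyte markers averaged 6.14, 5.46 and 4.55 in ETX replicates 6, 7 and 10, against 4.24, 4.38 and 5.62 in PBS replicates 3, 9 and 12, with 0 of 6 called in limma (0 at an unadjusted p under 0.05). Over all 14953 genes tested with limma, 3.56% passed an adjusted p of 0.05 (1.14% higher and 2.43% lower in ETX), and the groups did not overlap for 27.7% of genes (11.6% higher and 16.1% lower in ETX). Of the calls, 68.1% were lower in ETX, 78.6% with arrays centred on their median and 52.4% after a further quantile normalization.

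Irs2 fell in the ETX hearts, and so, by far less, did Pik3ca. Of the 10 members 2 passed the adjusted p of 0.05 in limma, both lower in ETX, and 8 did not; the share of all genes called lower was 2.43%. At an unadjusted p under 0.05 there were 3 members of 10, where 21.9% of all genes tested reached it. The groups did not overlap for 5 members of 10 (Irs2, Pik3ca, Insr, Irs1 and Foxo1), all lower in ETX, against 16.1% of all genes. The median log2 difference of the 10, ETX minus PBS, was -0.14, against -0.006 for all genes tested. Below 0 lay 7 of the 10, against 51.6% of all genes.

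**Figure D1:**
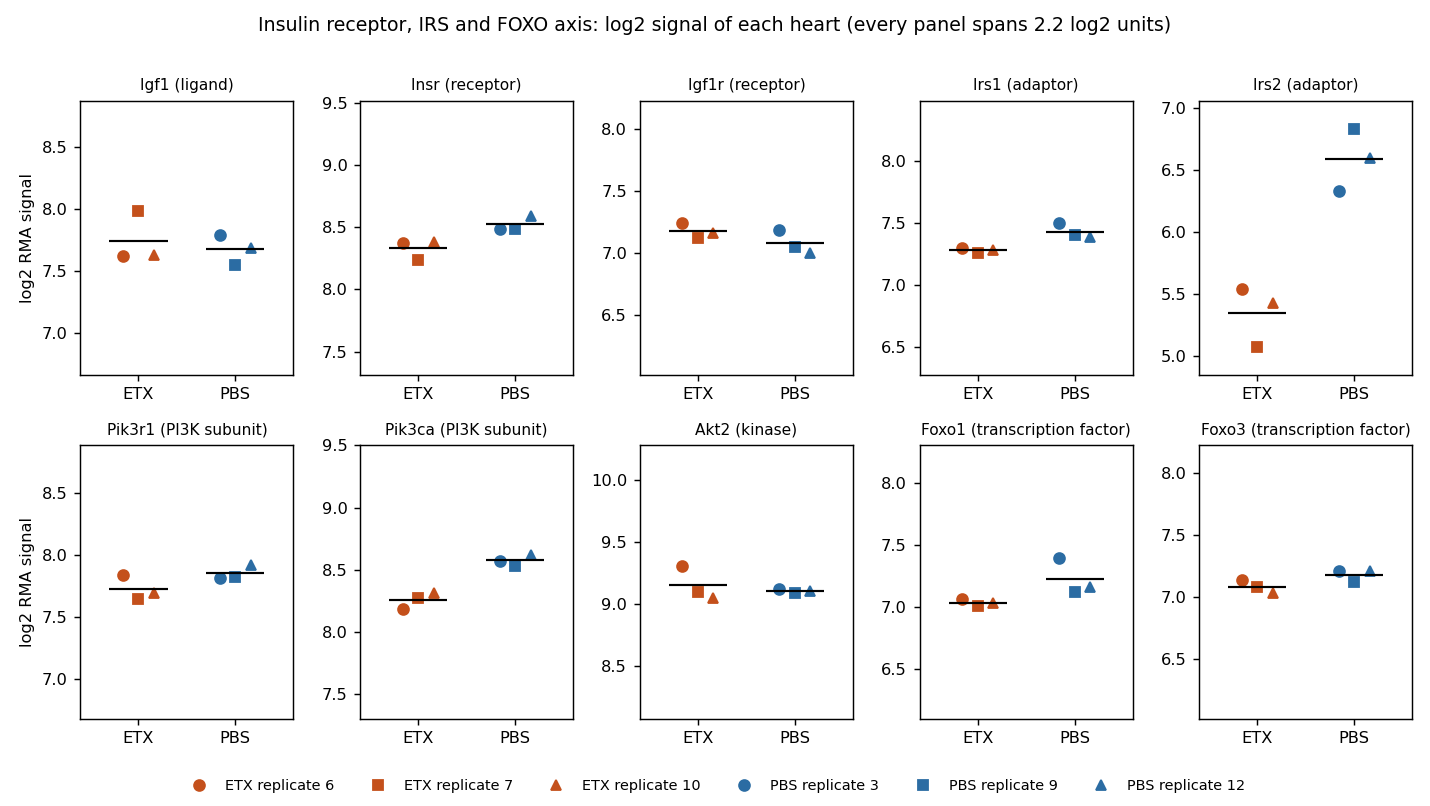
Log2 RMA signal (vertical axis, each panel spanning the same number of log2 units around its own centre) of the 10 members in each heart, ETX left and PBS right, with a horizontal line at the mean of 3 hearts. Irs2 is the panel with the wide gap, 5.08 to 5.54 in ETX hearts and 6.33 to 6.83 in PBS hearts.

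Igf1, the ligand, which the liver releases into blood and heart cells also transcribe, had a log2 signal of 7.62, 7.98 and 7.63 in ETX replicates 6, 7 and 10, against 7.79, 7.55 and 7.68 in PBS replicates 3, 9 and 12. The groups overlapped, and ETX replicate 7 was the highest heart. The difference was 0.08 (95% interval -0.18 to 0.34, limma adjusted p = 0.742), and without ETX replicate 7 it was -0.04.

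Insr, the insulin receptor, had signals of 8.37, 8.24 and 8.38 in ETX hearts and 8.49, 8.49 and 8.59 in PBS hearts. All 3 ETX hearts lay below the PBS hearts, by a gap of 0.11, but the difference of -0.19 (95% interval -0.35 to -0.03) did not pass over all genes (limma adjusted p = 0.157). A second, dimmer cluster of Insr differed by -0.12 (limma adjusted p = 0.347). Igf1r, the receptor of IGF1, stood at 7.24, 7.12 and 7.16 in ETX hearts, against 7.18, 7.05 and 7.0 in PBS hearts. These overlapped, with a difference of 0.10 (95% interval -0.07 to 0.27, limma adjusted p = 0.463).

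Irs2, the adaptor that carries much of the insulin signal in liver and beta cells, had signals of 5.54, 5.08 and 5.43 in ETX hearts, against 6.33, 6.83 and 6.60 in PBS hearts. The lowest PBS heart (replicate 3) lay 0.78 above the highest ETX heart (replicate 6), a gap wider than the range within either group (0.46 in ETX and 0.50 in PBS). Irs2 averaged 5.35 ± 0.24 in ETX and 6.58 ± 0.25 in PBS (SD, n = 3 each) and was 2.35-fold lower, a log2 difference of -1.23 (SE 0.15, 95% interval -1.58 to -0.88, limma adjusted p = 0.00977). It was the fall ranked 44 of all 14953 genes, and 0.348% of genes had a larger absolute difference. PBS replicate 12, where lung markers were as low as in ETX hearts, had 6.60. ETX replicate 10, where the atrial mean was low, had 5.43, against 6.83 and 6.60 in PBS replicates 9 and 12, where it was low too. The atrial marker Nppa did not match between these hearts (11.89 in ETX replicate 10, against 9.28 and 9.04 in PBS replicates 9 and 12). In the hearts with the lowest hepatocyte means Irs2 was 5.43 in ETX replicate 10, against 6.33 and 6.83 in PBS replicates 3 and 9. These hearts were not matched on other markers: PBS replicates 3 and 9 held lung transcripts, and PBS replicate 3 had a high atrial mean. Each such comparison has a single heart on 1 side. A part of lung, atrial or liver tissue in the Irs2 difference was not tested. Without both PBS hearts with lung transcripts the difference was -1.25 (limma adjusted p = 0.0755, 19 genes called in all), and without the 3 hearts high in atrial transcripts it was -1.28 (limma adjusted p = 0.259, 2 genes called in all). Irs2 passed with each heart left out in turn (log2 difference -1.36 to -1.10, limma adjusted p = 0.0205 to 0.0343).

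Irs1, the adaptor of muscle and fat, moved far less, with 7.30, 7.26 and 7.28 in ETX hearts and 7.5, 7.40 and 7.39 in PBS hearts. The groups did not overlap, and the gap was 0.08. The difference of -0.15 (95% interval -0.30 to 0.0006) did not pass (limma adjusted p = 0.23). Another cluster of Irs1 was dim (3.03 on average, below the filter) and differed by 0.03. Taken within each heart, the log2 difference of Irs2 from Irs1 changed by -1.08 between ETX and PBS, lower in all 3 ETX hearts than in any PBS heart (two-sided exact permutation p = 0.1, the smallest that 3 against 3 can give, adjusted p = 0.133 over the 4 pairs of members compared). By the same measure Insr changed by -0.30 relative to Igf1r and Pik3r1 by 0.19 relative to Pik3ca (exact permutation p = 0.1 each, adjusted p = 0.133), and Foxo1 by -0.10 relative to Foxo3 (exact permutation p = 0.2, adjusted p = 0.2).

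Pik3ca, the gene of the catalytic p110-alpha subunit that insulin receptors use, had signals of 8.18, 8.27 and 8.31 in ETX hearts, against 8.57, 8.53 and 8.62 in PBS hearts. The groups were apart by 0.21, more than the range within ETX (0.14) or PBS (0.09). It averaged 8.25 ± 0.07 in ETX and 8.57 ± 0.05 in PBS (SD, n = 3 each), 1.25-fold lower, a log2 difference of -0.32 (SE 0.07, 95% interval -0.47 to -0.16, limma adjusted p = 0.0472). The call was narrow: with each heart left out in turn the difference ran from -0.35 to -0.28 and passed in none of the 6 fits (limma adjusted p = 0.0805 to 0.142). Without the lung hearts it was -0.37 (limma adjusted p = 0.172), and without the atrial hearts -0.26 (limma adjusted p = 0.63). Pik3r1, the p85-alpha regulatory subunit that docks on phosphorylated IRS, had 7.84, 7.64 and 7.69 in ETX hearts and 7.81, 7.82 and 7.92 in PBS hearts. ETX replicate 6 lay among the PBS hearts, and the difference of -0.12 (95% interval -0.30 to 0.05) did not pass (limma adjusted p = 0.393).

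Akt2, the AKT form that serves insulin-driven glucose uptake, had signals of 9.31, 9.10 and 9.05 in ETX hearts, against 9.12, 9.09 and 9.11 in PBS hearts. The groups overlapped, the difference was 0.05 (95% interval -0.14 to 0.24, limma adjusted p = 0.764), and a second cluster differed by 0.01. ETX replicate 6 was the high heart, and without it the difference was -0.03.

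Foxo1 had signals of 7.06, 7.01 and 7.03 in ETX hearts, against 7.39, 7.12 and 7.16 in PBS hearts. The ETX hearts lay close together and just below the PBS hearts, of which replicate 3 was the highest. The difference of -0.19 (95% interval -0.38 to 0.003) did not pass (limma adjusted p = 0.235), and it was -0.11 without PBS replicate 3. Foxo3 had 7.14, 7.08 and 7.03 in ETX hearts and 7.21, 7.12 and 7.21 in PBS hearts. These overlapped, and the difference was -0.09 (95% interval -0.25 to 0.06, limma adjusted p = 0.457). The arrays report transcripts and not the phosphorylation or nuclear location by which FOXO activity is set.

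**Figure D2:**
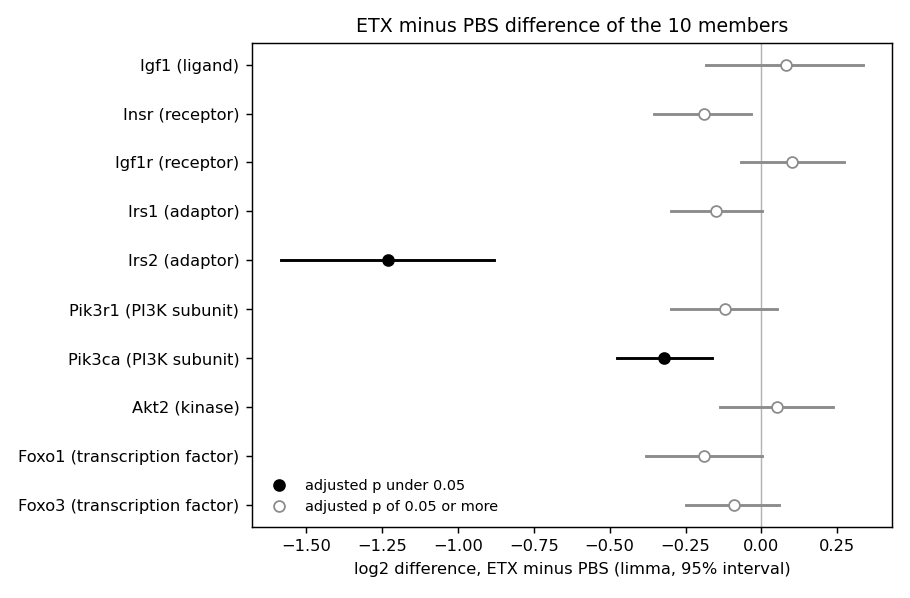
Log2 difference, ETX minus PBS (horizontal axis), of the 10 members with 95% intervals from limma over 6 hearts; filled points passed an adjusted p of 0.05. Irs2 (-1.23) and Pik3ca (-0.32) passed, and the other 8 lay between -0.19 and 0.10.

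Macrophage and endothelial markers were also lower in the ETX hearts. In bulk tissue, fewer cells of a type and less RNA per cell cannot be told apart. Of all genes tested in limma 2.43% were called lower, and 21.9% had an unadjusted p under 0.05. The macrophage markers averaged 6.53 to 6.64 in ETX hearts and 7.04 to 7.27 in PBS hearts. Of these 10, 5 were called lower and 6 had an unadjusted p under 0.05. The endothelial markers averaged 8.46 to 8.62 in ETX hearts and 8.78 to 8.80 in PBS hearts. Of these 10, 3 were called lower and 7 had an unadjusted p under 0.05. The fibroblast markers averaged 9.34 to 9.50 in ETX hearts and 9.50 to 9.65 in PBS hearts. Of these 8, 1 was called lower and 4 had an unadjusted p under 0.05 in limma. Hepatocyte markers leaned the other way (median log2 difference 0.46, ETX minus PBS), with 0 of 6 below 0. Adipocyte markers were mixed (median 0.12), with 4 of 6 above 0 and 2 below. With the macrophage mean in the fit the Irs2 difference was -0.66 (SE 0.49, limma adjusted p = 0.816), and with the endothelial mean -1.06 (SE 0.44, limma adjusted p = 0.756). Both means separate ETX from PBS hearts, so each fit holds little information on treatment; 0 genes of all tested passed in either by limma, with 1090 and 986 at an unadjusted p under 0.05. With the lung mean in the fit Irs2 differed by -1.15 (limma adjusted p = 0.0685). Beyond these fits, the part of these cells in the fall of Irs2 was not tested.

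The genes whose profile over the 6 hearts lay nearest to that of Irs2 were Rgs7, a regulator of G protein signalling (root mean square distance 0.154 log2 units after centring each gene on its own mean), the membrane peptidase gene Mme (0.161), the macrophage lectin gene Mgl2 (0.169) and the MHC class II gene H2-Ab1 (0.194). Rgs7 had 4.57, 4.08 and 4.26 in ETX hearts, against 5.29, 5.48 and 5.73 in PBS hearts, and its lowest heart was ETX replicate 7, as for Irs2. Mgl2 had 4.27, 4.07 and 4.56 in ETX hearts and 5.10, 5.44 and 5.44 in PBS hearts. All 4 were chosen by this likeness and their differences lay between -1.51 and -1.03. Nearest to Pik3ca were Bptf, a chromatin remodeller subunit (0.019), and Rbm26, an RNA-binding protein gene (0.020), with differences of -0.30 and -0.31.

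The remaining genes of the pathway were taken in 4 lists by role, 70 genes of which 64 were tested. In limma 2 of the 64 fell, Gab1 and Phlpp1, and 0 rose, or 3.13% called against 3.56% of all genes, so the share was near the background. The groups did not overlap for 19 of the 64 lower and 5 higher in ETX, against 16.1% and 11.6% of all genes.

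Among ligands, receptors and binding proteins 0 of 13 passed in limma (3 at an unadjusted p under 0.05, against 21.9% of all genes; median log2 difference -0.08). Igf2, the fetal growth factor, stood at 9.92, 9.95 and 9.97 in ETX hearts, against 10.17, 10.02 and 10.13 in PBS hearts. The ETX hearts were the lower ones, but the difference of -0.16 did not pass (limma adjusted p = 0.209). Nor did that of Igf2r, the receptor that clears IGF2 (-0.16, limma adjusted p = 0.197), or of Igfbp3, a carrier of IGFs (-0.35, limma adjusted p = 0.145).

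Of the adaptors and brakes at the receptor 1 of 14 was called lower and 0 higher in limma, where 2.43% of all genes were called lower. At an unadjusted p under 0.05 in limma there were 3 of the 14, against 21.9% of all genes. The median log2 difference was -0.06. Gab1, a docking protein that like the IRS adaptors brings PI3K to receptors, had 7.52, 7.57 and 7.54 in ETX hearts, against 7.87, 7.81 and 7.84 in PBS hearts. The groups were narrow and apart, 1.23-fold lower in ETX (log2 difference -0.30, SE 0.06, limma adjusted p = 0.0427). Grb14, which inhibits the insulin receptor, differed by -0.22 (limma adjusted p = 0.144), Dok4 by -0.27 (0.158) and the receptor inhibitor Grb10 by -0.05 (0.686).

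Of the PI3K, AKT and phosphatase genes 1 of 18 was called lower and 0 higher in limma, where 2.43% of all genes were called lower. At an unadjusted p under 0.05 in limma there were 9 of the 18, against 21.9% of all genes. The median log2 difference was -0.13. Phlpp1, a phosphatase that switches AKT off, had 6.28, 6.32 and 6.34 in ETX hearts, against 6.58, 6.59 and 6.63 in PBS hearts. It was 1.22-fold lower without overlap (log2 difference -0.29, SE 0.06, limma adjusted p = 0.0448). Akt1 went the other way, with 9.02, 8.89 and 8.76 in ETX hearts and 8.66, 8.70 and 8.66 in PBS hearts. The groups did not overlap, but the difference of 0.21 did not pass (limma adjusted p = 0.169). Inpp5d, a lipid phosphatase of blood cells, differed by -0.34 (0.1), and Pdpk1, the kinase that activates AKT, by -0.20 (0.153). Gab1, Phlpp1 and Pik3ca each lost the call with any 1 heart left out (limma adjusted p = 0.0791 to 0.142), while the difference of Gab1 stayed between -0.31 and -0.28 and that of Phlpp1 between -0.30 and -0.28.

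Of the AKT substrates and mTOR genes 0 of 19 passed in limma (6 at an unadjusted p under 0.05, against 21.9% of all genes; median -0.02). Slc2a4, the insulin-responsive glucose transporter GLUT4, had 8.72, 8.61 and 8.61 in ETX hearts, against 8.46, 8.44 and 8.46 in PBS hearts. Every ETX heart was higher, with a difference of 0.20 that did not pass (limma adjusted p = 0.133). Tbc1d4, the AKT substrate that holds GLUT4 inside the cell, differed by -0.33 (0.124), the mTOR inhibitor Deptor by -0.27 (0.0914) and Rictor, of mTOR complex 2, by -0.20 (0.112).

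**Figure D3:**
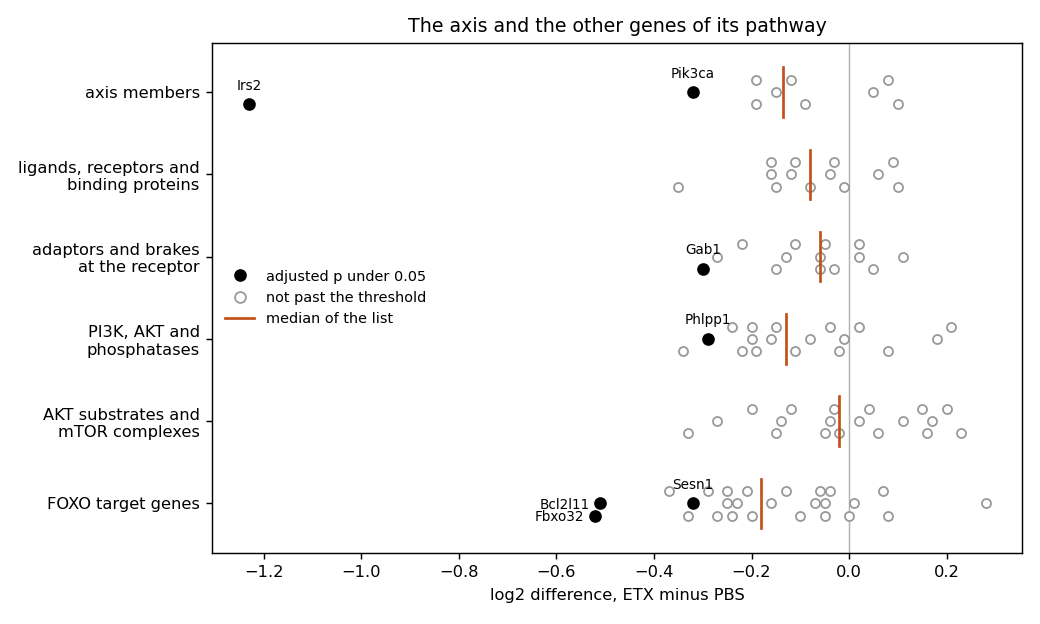
Log2 difference, ETX minus PBS (horizontal axis), of every tested gene of the 10 members and of 5 further lists (rows); filled points passed an adjusted p of 0.05 in limma and orange bars are list medians. The filled points, Irs2, Pik3ca, Gab1, Phlpp1, Bcl2l11, Fbxo32 and Sesn1, all lie below 0.

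Among FOXO target genes, many of which rise in fasting and muscle atrophy, Fbxo32, Bcl2l11 and Sesn1 fell in ETX. Of 26 tested, these 3 fell and 0 rose in limma, 11.5% lower against 2.43% of all genes. An unadjusted p under 0.05 in limma was reached by 12 of the 26, against 21.9% of all genes. Without the lung hearts 0 of the 26 passed in limma (10 at an unadjusted p under 0.05, against 17.4% of all genes), and the differences of Fbxo32, Bcl2l11 and Sesn1 were -0.55, -0.58 and -0.33. Without the atrial hearts 0 passed in limma (2 at an unadjusted p under 0.05, against 8.23% of all genes), and they were -0.55, -0.49 and -0.28. Below 0 lay 22 of the 26, and the median was -0.18 against -0.006 for all genes. The groups did not overlap for 10 of the 26, all lower in ETX, against 16.1% of all genes. Several of these genes answer to other regulators too: Sesn1 is also a p53 target, and Fbxo32, Ddit4 and Klf15 also respond to glucocorticoids.

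Fbxo32, the muscle ubiquitin ligase atrogin-1, had 7.35, 7.44 and 7.35 in ETX hearts, against 7.90, 7.87 and 7.93 in PBS hearts. The groups were tight and wide apart, 1.43-fold lower in ETX (log2 difference -0.52, SE 0.06, limma adjusted p = 0.00977), and Fbxo32 passed with each heart left out in turn (limma adjusted p = 0.0228 to 0.0438). Trim63, the ligase MuRF1 that is usually named beside it and was picked here after its values were seen, had 8.29, 8.15 and 8.04 in ETX hearts, against 8.21, 7.94 and 8.10 in PBS hearts. It overlapped, with a difference of 0.08 (95% interval -0.14 to 0.30, limma adjusted p = 0.676).

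Bcl2l11, which encodes the cell death protein BIM, had 5.10, 5.21 and 5.12 in ETX hearts, against 5.72, 5.50 and 5.73 in PBS hearts. It was 1.42-fold lower (log2 difference -0.51, SE 0.08, limma adjusted p = 0.0251) but passed in 1 of the 6 fits without a heart, that without PBS replicate 9. Sesn1, a stress protein that restrains mTOR, had 8.13, 8.04 and 8.12 in ETX hearts, against 8.47, 8.37 and 8.42 in PBS hearts. The groups did not overlap, 1.25-fold lower in ETX (log2 difference -0.32, limma adjusted p = 0.0394), with the call lost in each of these 6 fits (up to 0.143) at differences of -0.35 to -0.30. Pdk4, the kinase that turns off pyruvate dehydrogenase in fasting, had 10.91, 10.85 and 11.18 in ETX hearts, against 11.18, 11.32 and 11.24 in PBS hearts. ETX replicate 10 overlapped the lowest PBS heart, and the difference of -0.27 did not pass (limma adjusted p = 0.16).

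Of the called pathway genes, Gab1 held TGTTTTG at -1 in a window and at -41 in another. This motif was in 6.28% of all windows. The FOXO core was found in the windows of 2 of the 3 called targets, Bcl2l11 and Sesn1, and Fbxo32 had no window. In Sesn1 the core began at 22, after the start site. The core was in 3.65% of all 32851 windows, a share per window, and a gene can have several windows. Matches were not counted for the FOXO targets that were not called, so the called targets have no such rate beside them. A link between the core and the falls was not tested. In Bcl2l11 the core began at -227 on the opposite strand. This window is shown because Bcl2l11 is a called target with the motif upstream of its start. The motif, read as GTAAACA, is in capitals in chr2:128125788-128125847 (GRCm38.p6, plus strand, RefSeq):
Bcl2l11: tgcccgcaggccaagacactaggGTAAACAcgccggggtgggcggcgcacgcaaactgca

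**Figure D4:**
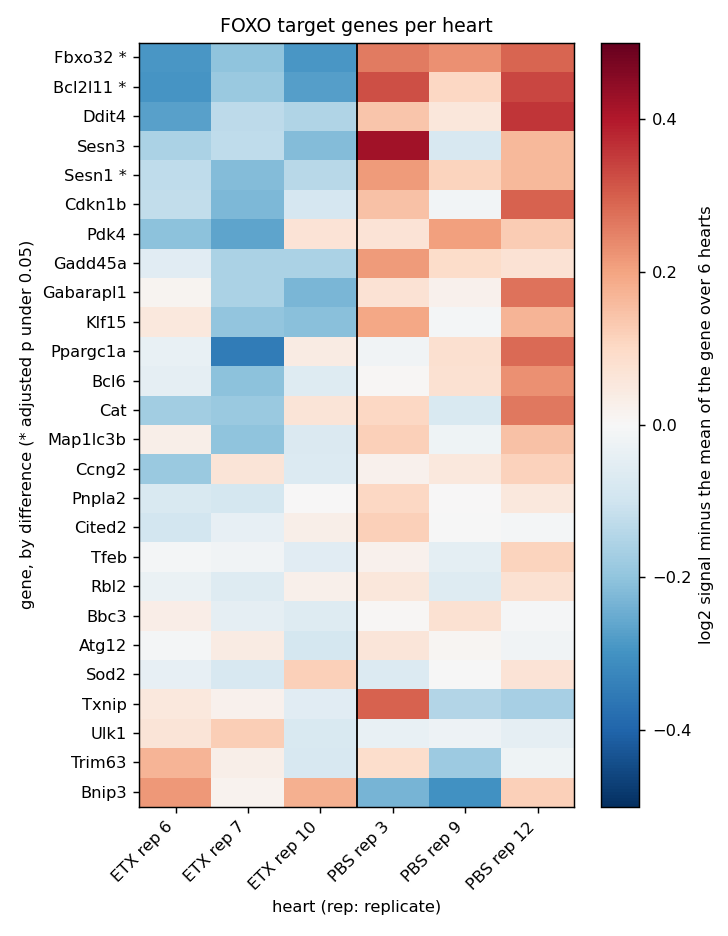
Log2 signal of the 26 FOXO target genes (rows, ordered by difference, asterisks at an adjusted p under 0.05) in each heart (columns, ETX left of the black line), as the deviation from the mean of the gene over 6 hearts (colour). Fbxo32 and Bcl2l11 are low in all 3 ETX hearts and high in all 3 PBS hearts, while Trim63 and Bnip3 overlap between the groups.

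**Figure D5:**
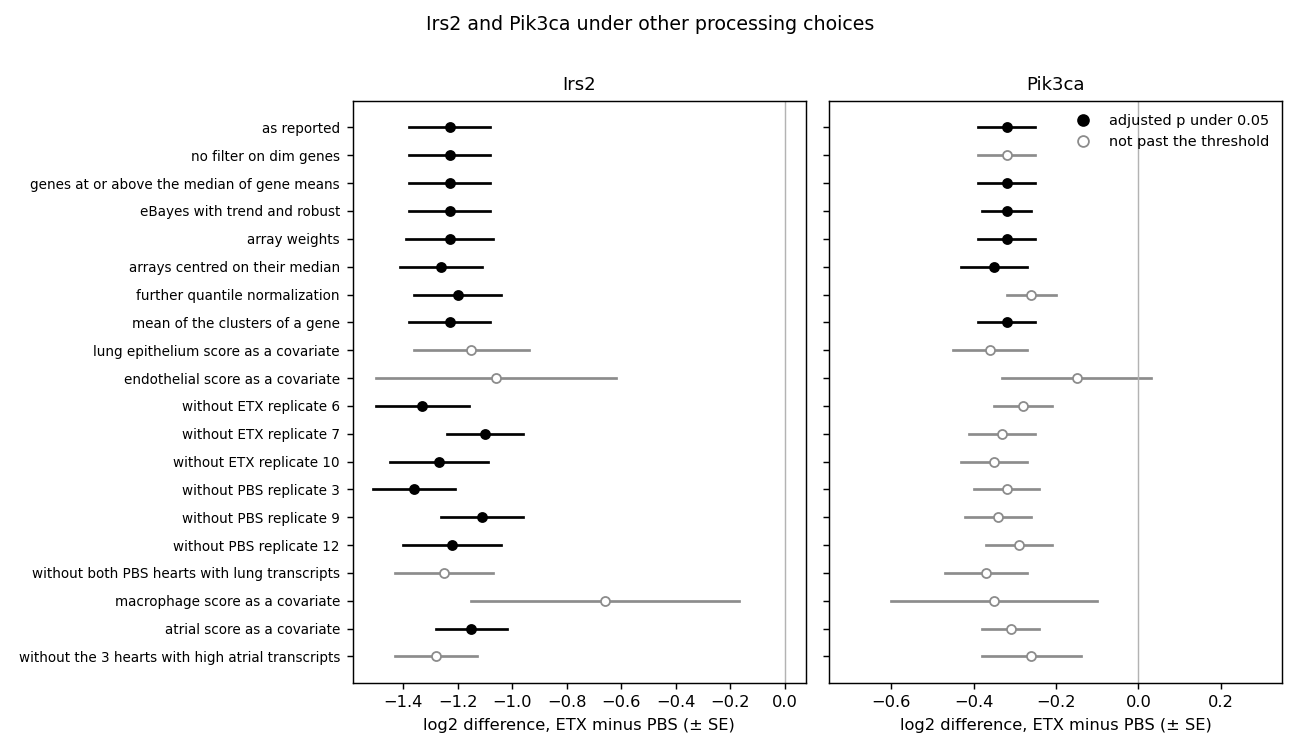
Log2 difference, ETX minus PBS, with its standard error (horizontal axis) for Irs2 and Pik3ca in the fit as reported and in 19 others (rows); filled points passed an adjusted p of 0.05. Irs2 stays between -1.36 and -0.66 and Pik3ca between -0.37 and -0.15, and Pik3ca is filled in fewer rows.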

How the data were processed

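The authors deposited 1 table of log2 values of 35556 transcript clusters, made with Affymetrix Expression Console and RMA (background correction, quantile normalization and median polish) per the submitters' processing notes, which give no versions; RMA compresses differences of dim transcripts. Annotation, build and filters: not given in the sources used here. A platform table gave 21789 clusters 1 gene symbol. The brightest cluster stood for a gene, and genes with a mean under the lower quartile (3.45) were left out. ETX was compared with PBS over all 14953 remaining genes with limma 3.58.1 (lmFit, eBayes, two-sided, Benjamini-Hochberg, threshold 0.05) in R 4.3.3, and the functions were tested on simulated data. Pairs of members were compared with an exact permutation test. Marker means are mean log2 values of a list. No paired analysis was possible because the groups share no replicate numbers.

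The members, lists, motifs and tests were chosen with earlier results of these data known. Named were all members, of each list the called genes (up to 8), filled up by the smallest p to 3 where fewer were called, Grb10, Slc2a4, Akt1, Igf2 and Pdk4, and the nearest profiles, passing over predicted genes, receptors of smell and small RNAs. Fits with macrophage or atrial means, and without hearts high in atrial transcripts, were added after seeing the data. Figures used matplotlib 3.10.9 in Python 3.11.15.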

Additional observations from a re-analysis of the deposited data

How the results depend on the processing

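Irs2 kept its direction in all 19 alternative fits and passed in 14. It did not pass with the lung (-1.15), endothelial (-1.06) or macrophage mean (-0.66) in the fit, without both PBS hearts with lung transcripts (-1.25, limma adjusted p = 0.0755) or without the 3 hearts with high atrial transcripts (-1.28, limma adjusted p = 0.259). The fits without these hearts leave 1 heart in PBS or in ETX, whose spread is taken from the other hearts. Over all alternatives its adjusted p ran from 0.00364 to 0.816, and without 1 heart each the difference ran from -1.36 to -1.10. Pik3ca kept its direction and passed in 5 of 19. It did not pass with no filter (-0.32), a further quantile normalization (-0.26), the lung (-0.36), endothelial (-0.15), macrophage (-0.35) or atrial mean (-0.31), without the lung hearts (-0.37), without the atrial hearts (-0.26), or without 1 heart each (-0.35 to -0.28). Members called numbered 1 in every fit without 1 heart, with no filter, after quantile normalization and with the atrial mean, and 0 with the lung, endothelial or macrophage mean and without the lung or the atrial hearts (3, 1, 0, 3 and 1 at an unadjusted p under 0.05 in limma, against 17.7%, 6.59%, 7.29%, 17.4% and 8.23% of all genes); at a threshold of 0.1 there were 2.

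Genes called over all tested were 533 as reported, 909 above the median of gene means, 957 with trend and robust options, 75, 0, 0 and 137 with the lung, endothelial, macrophage and atrial means, 19 without the lung hearts, 2 without the atrial hearts and 94 to 241 without 1 heart each. The adaptor list and the PI3K list each had 1 call as reported and 0 in 14 of 19 alternatives (the same settings in which Pik3ca did not pass). The FOXO target list had 3 calls as reported, 1 with the atrial mean, 0 with the lung, endothelial and macrophage means and without the lung or atrial hearts (10, 1, 6, 10 and 2 at an unadjusted p under 0.05 in limma, against the same shares of all genes), and 1 to 2 without 1 heart each. Directions that turned belonged to members that never passed: Igf1 with the endothelial mean (-0.185), the macrophage mean (-0.225) and without ETX replicate 7 (-0.043, in a range of -0.043 to 0.137 without 1 heart each); Igf1r with the macrophage mean (-0.035); Irs1 on its dim cluster (0.028); and Akt2 with the endothelial mean (-0.223), the macrophage mean (-0.196), without the atrial hearts (-0.046) and without ETX replicate 6 (-0.029, in a range of -0.029 to 0.101). The cause of these changes was not tested. The fits with a marker mean or without hearts have fewer degrees of freedom than the main fit. The fit of the dim Irs1 cluster used all 6 hearts and no marker mean.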
